A study of Homo sapiens with 8 samples.

Results

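The MS4A genes encode small membrane proteins that cross the membrane 4 times. The 5 members examined here, MS4A3, MS4A4A, MS4A6A, MS4A7 and MS4A14, were found by gene symbol among the 26364 rows of a TPM table. They were chosen with earlier results of these data known, and no other MS4A gene listed there reached 1 TPM. Counts over these members are therefore not those of an unselected family. The table holds 8 RNA-seq libraries of MV4-11, a human AML cell line with a FLT3 internal tandem duplication and an MLL-AF4 fusion, as 2 replicates in each of 4 groups. Cells received DMSO as vehicle (control), the LSD1 inhibitor tranylcypromine (TCP) at 5 μM, the CDK4/6 inhibitor palbociclib at 0.5 μM, or both molecules (the combination), with 4 days of treatment by the labels. In the methods of the study the CDK6 inhibitor is given for 1 day and both molecules for 3 more, so the time under TCP may have been shorter than 4 days. The cells of all groups carry both lesions, and the study grew its AML lines on HS-5 stromal cells. No source says that the 2 replicates of a group came from separate experiments, so p-values measure the spread between these libraries, which may be technical.

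As background, MS4A proteins resemble CD20, the B-cell antigen encoded by MS4A1, and the beta chain of the high-affinity IgE receptor, encoded by MS4A2, and they are thought to act by associating with receptors and other signaling proteins in the membrane. In the myeloid lineage MS4A3 is a gene of granulocyte-monocyte progenitors and of early granulocytic cells, while MS4A4A, MS4A6A and MS4A7 are expressed in monocytes and macrophages. LSD1 is a histone demethylase that GFI1 recruits to chromatin, where it holds myeloid genes in check, and CDK6 drives the cell cycle.

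All 5 genes were expressed in control cells and all 5 were higher under palbociclib and under the combination, but with TCP their values parted. MS4A3 had less RNA with TCP than without it, both in cells without palbociclib and in cells with it, and MS4A4A, MS4A7 and MS4A14 had more. Of these TCP differences only that of MS4A4A in palbociclib-treated cells was called. MS4A6A differed little. Levels are given in TPM, which divides by gene length and scales each library to a total of 1000000, so that genes can be compared with each other within a library. The sequencing depth cannot be read from them. Differences between groups are of log2(TPM + 1), tested with limma across the 14151 genes that reached 1 TPM in at least 2 libraries, a filter that all 5 members passed. A gene was called when the difference was at least 1 in size and the adjusted p (Benjamini-Hochberg, over all genes tested) was below 0.01. The pseudocount of 1 understates the change of low genes. In bulk RNA a change in the share of cells that express a gene and a change in its level per cell cannot be told apart.

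**Figure D1:**
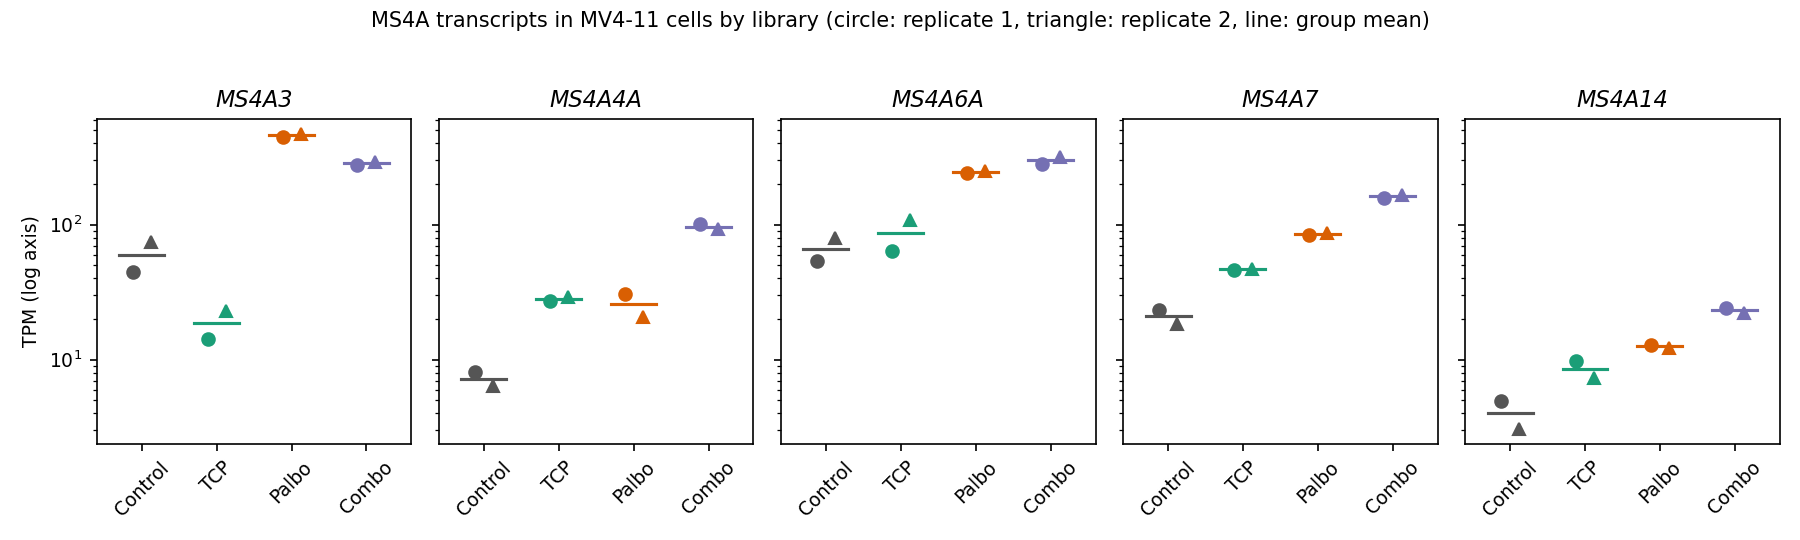
TPM of the 5 MS4A genes on a log axis in each of the 8 libraries, by treatment, with circles for replicate 1, triangles for replicate 2 and a line at each group mean. MS4A3 is lowest under TCP and highest under palbociclib, while MS4A4A, MS4A7 and MS4A14 have their highest values under the combination.

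The libraries had the profile of a myeloid leukemia line. FLT3, MEIS1, HOXA9, CD33, PTPRC and SPI1 were present in every library, with a summed level between 785 and 905 TPM. Single genes moved in opposite directions within this sum. Against control, FLT3 was called lower under palbociclib and under the combination, at log2 differences of -1.517 and -1.706. SPI1 was called higher under the combination, at 1.008. The rest of these 6 genes were not called against control in any group. Of 6 B-cell markers MS4A1 and CR2 were listed at 0 throughout, as were CPA3 and CLC among 8 markers of basophils, mast cells and eosinophils. Collagen and other stromal markers, 9 in all, had a sum of 0.932 to 5.31 TPM without palbociclib and of 7.30 to 13.0 TPM in the combination libraries. In every group their sum was higher in replicate 2 than in replicate 1. They reached 4.51 TPM in palbociclib replicate 1 and 72.2 TPM in palbociclib replicate 2, which therefore stood apart from the rest. Where members or listed genes were called between palbociclib and control or the combination, calls or log2 differences without that library are given as well. For FLT3 under palbociclib the log2 difference was then -1.30, and it was no longer called. Levels are given for each library or as ranges. Over all genes tested the median log2 change was -0.16 for palbociclib and -0.22 for the combination, a shift against which the members can be read.

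The members lie together on the long arm of chromosome 11. On GRCh37, the build of hg19 to which the authors mapped the reads, a GENCODE annotation lifted to that build places 17 MS4A genes and pseudogenes between positions 59824060 and 60568778, and the 5 members fill the first 361.2 kb of these 744.7 kb. MS4A3 comes first (59824060 to 59838588, plus strand), followed by MS4A6A (59939488 to 59952139, the only one on the minus strand), MS4A4A (59953130 to 60085553), MS4A7 (60145958 to 60163424) and MS4A14 (60146003 to 60185229). Between MS4A3 and MS4A6A lies MS4A2. MS4A7 and MS4A14 overlap on the same strand and share 135 exon bases, which is 3.11% of the exon bases of MS4A7 and 3.37% of those of MS4A14. MS4A4E, which is not analysed here, lies within MS4A4A on the opposite strand. The strand setting of the counting is not given in the sources used here, so the values of MS4A4A are uncertain to that extent. That setting could not separate reads from the exon bases that MS4A7 and MS4A14 share, whose values are uncertain as well.

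The table lists 15 MS4A genes, and those with RNA lay at one end of the cluster. Beside the 5 members, MS4A2 and MS4A6E, which lie among them, were the only others above 0 in any library, and neither exceeded 0.824 TPM. The remaining 8, from MS4A5 and MS4A1 to MS4A10, lie beyond MS4A14 and were listed at 0 TPM in every library. MS4A1, which encodes CD20, was among them. Of the 3 other genes annotated inside the cluster, ENSG00000255331, LINC02705 and LINC00301, the table holds LINC00301, also listed at 0.

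**Figure D2:**
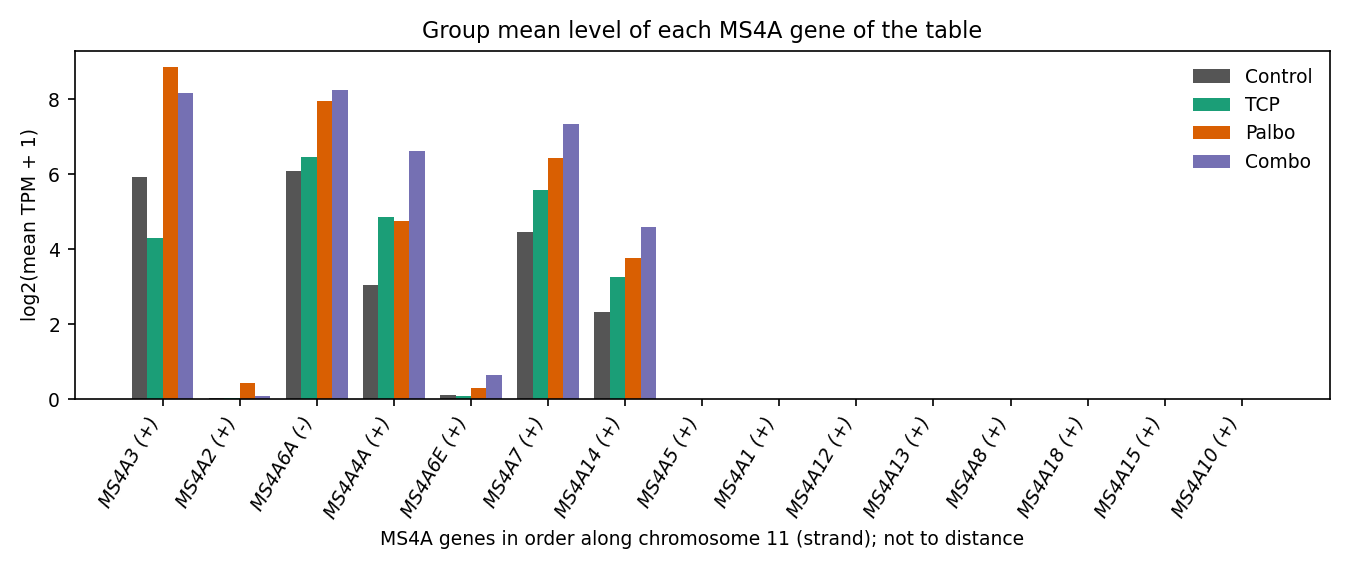
Bars give log2(mean TPM + 1) of each MS4A gene of the table in the 4 groups, with the genes in their order along chromosome 11 and not to distance. The 5 members stand in the first part of the cluster, and the 8 genes that follow MS4A14 are at 0 in all groups.

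RefSeq start windows of the members are shown because 5 neighbors that all gained under palbociclib had different values under TCP. RefSeq held a window for each of the 5, from 250 bases before the start site to 50 bases after it, and every window matched GRCh37 exactly at 1 place on chromosome 11, where its coordinates are given. The windows of MS4A4A and MS4A14 lie inside the gene spans given above, at a start other than the outermost one of the GENCODE annotation. MS4A6A has 4 such windows, of which the first listed is printed. Each sequence reads 5′ to 3′ on the strand of its gene, and capitals mark the letters GAGGAA, the core of a purine-rich site of the kind that the ETS factor SPI1 binds.
MS4A3, chr11:59823888-59824187, plus strand: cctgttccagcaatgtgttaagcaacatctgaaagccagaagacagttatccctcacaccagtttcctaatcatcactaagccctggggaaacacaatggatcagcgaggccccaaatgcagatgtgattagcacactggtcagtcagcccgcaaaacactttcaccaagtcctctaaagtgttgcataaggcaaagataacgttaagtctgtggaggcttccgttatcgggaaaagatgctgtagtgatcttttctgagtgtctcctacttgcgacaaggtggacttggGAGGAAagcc
MS4A6A, chr11:59952090-59952389, minus strand: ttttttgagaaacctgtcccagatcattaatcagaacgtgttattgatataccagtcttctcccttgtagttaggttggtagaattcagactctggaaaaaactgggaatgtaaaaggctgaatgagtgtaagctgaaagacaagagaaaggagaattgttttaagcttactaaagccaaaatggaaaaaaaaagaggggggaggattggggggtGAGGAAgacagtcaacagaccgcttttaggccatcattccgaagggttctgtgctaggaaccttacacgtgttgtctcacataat
MS4A4A, chr11:60047889-60048188, plus strand: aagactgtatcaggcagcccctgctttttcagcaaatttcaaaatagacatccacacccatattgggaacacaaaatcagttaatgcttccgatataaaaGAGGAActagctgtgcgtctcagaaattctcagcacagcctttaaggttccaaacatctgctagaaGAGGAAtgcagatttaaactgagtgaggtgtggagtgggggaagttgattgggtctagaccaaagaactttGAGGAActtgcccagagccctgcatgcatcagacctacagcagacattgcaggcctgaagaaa
MS4A7, chr11:60145755-60146054, plus strand: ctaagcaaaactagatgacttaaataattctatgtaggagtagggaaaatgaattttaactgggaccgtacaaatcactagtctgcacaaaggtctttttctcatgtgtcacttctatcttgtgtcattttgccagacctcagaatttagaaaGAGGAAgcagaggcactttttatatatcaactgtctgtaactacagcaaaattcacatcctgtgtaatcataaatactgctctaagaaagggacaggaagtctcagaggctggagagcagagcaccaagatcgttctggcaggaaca
MS4A14, chr11:60163682-60163981, plus strand: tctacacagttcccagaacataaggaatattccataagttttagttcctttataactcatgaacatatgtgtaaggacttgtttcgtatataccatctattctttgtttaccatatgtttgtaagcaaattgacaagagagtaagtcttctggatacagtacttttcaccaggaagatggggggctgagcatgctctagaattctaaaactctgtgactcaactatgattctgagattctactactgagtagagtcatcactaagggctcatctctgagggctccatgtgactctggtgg
Searched on both strands, GAGGAA occurred in 4 of the 5 printed windows and in 27.9% of all 35116 RefSeq windows of this length. The window of MS4A4A held it 3 times, those of MS4A3, MS4A6A and MS4A7 once each, and that of MS4A14 did not hold it. In MS4A3 it lay behind the start site, at positions 41 to 46, and in MS4A4A the nearest copy lay just ahead of it, at positions -13 to -8, counting the first base before the start site as -1. The letters TTNNGNAA, a loose form of the site of C/EBP factors, occurred in all 5 printed windows and in 36.8% of all windows, and 1 of the 3 copies in MS4A4A, at positions -15 to -8, overlaps a copy of GAGGAA. The letters AAATCA, part of the GFI1 site, were found in the printed windows of MS4A4A and MS4A7 and in 13.2% of all windows. For MS4A6A the matches depend on the window, since of its 4 windows 2 held GAGGAA, 3 held TTNNGNAA and 1, not the printed one, held AAATCA. The 3 patterns were chosen after the expression values and the sequences had been seen, and a match is a stretch of letters, not a bound site.

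MS4A3, a gene of granulocyte-monocyte progenitors whose protein binds the CDK-associated phosphatase CDKN3, measured 44.7 and 74.1 TPM in control cells against 14.3 and 22.8 TPM under TCP. It had 449 and 471 TPM under palbociclib and 279 and 292 TPM under the combination. No group overlapped another, and the order of the groups was palbociclib, combination, control and TCP in both replicates. The mean under palbociclib was 7.75 times that of control cells (460 ± 15.8 against 59.4 ± 20.8 TPM, SD, n = 2), a log2 change of 2.98 (standard error 0.27, limma adjusted p = 0.000323). Under the combination the log2 change was 2.29 (limma adjusted p = 0.000504).

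With TCP alone the mean of MS4A3 was 18.6 ± 6.01 TPM (SD, n = 2), and the control mean was 3.2 times as high. The log2 difference of -1.62 (95% interval -2.25 to -0.99) ranked 9th from the lowest among 14151 genes, and it missed the call (limma adjusted p = 0.0782, or 0.0205 with the replicate number in the model). Between the combination and palbociclib MS4A3 differed by -0.69 (95% interval -1.31 to -0.06), also short of the call (limma adjusted p = 0.251). The replicates gave nearly the same value for this second difference, -0.6856 and -0.6862. The TCP effect was thus numerically smaller with palbociclib than without it, by 0.93 on the log2 scale (95% interval 0.04 to 1.82), and this interaction was not called (limma adjusted p = 0.766).

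MS4A4A, whose protein lies in the membrane of macrophages together with the beta-glucan receptor dectin-1, had 8.13 and 6.35 TPM in control libraries and 27.2 and 29.0 TPM under TCP. Palbociclib gave 30.8 and 20.8 TPM and the combination 100 and 93.2 TPM. The TCP and palbociclib libraries overlapped, and those of the combination were above all others. The mean under the combination was 13.4 times that of control cells, a log2 change of 3.58 (standard error 0.19, limma adjusted p = 3.09e-05), the largest of the 5 members. The log2 change under palbociclib was 1.69 (limma adjusted p = 0.000668).

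TCP alone gave MS4A4A a log2 difference of 1.83 (95% interval 1.38 to 2.27), the 10th highest of all genes tested. It was past the threshold of size and just short of that of p (limma adjusted p = 0.0158), and it was called with the replicate block (limma adjusted p = 0.00686, with 0.00686 to 0.219 over 17 alternatives). Added to palbociclib, TCP raised MS4A4A by 1.89 (95% interval 1.45 to 2.33, limma adjusted p = 0.0064). This call needed all 8 libraries, since leaving out any 1 of them gave an adjusted p between 0.012 and 0.0744 and a log2 change between 1.62 and 2.16. Without palbociclib replicate 2, the library with the most stromal RNA, the log2 change was 1.62. The difference between the TCP effects with and without palbociclib was 0.06 (95% interval -0.56 to 0.69, limma adjusted p = 0.9998).

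MS4A7, expressed in monocytes and macrophages, followed the order control, TCP, palbociclib and combination without overlap of any groups. Its values were 23.4 and 18.4 TPM in control libraries, 46.2 and 47.3 TPM under TCP, 84.5 and 87.0 TPM under palbociclib, and 159 and 165 TPM under the combination. Palbociclib changed it by 2.00 and the combination by 2.91 on the log2 scale (standard error 0.11 each, limma adjusted p = 7.97e-05 and 1.47e-05). The difference under TCP alone was 1.13 (95% interval 0.87 to 1.40, limma adjusted p = 0.0143) and that between the combination and palbociclib was 0.91 (95% interval 0.64 to 1.18, limma adjusted p = 0.0114). Neither was called, the first for its p and the second for its p and its size.

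MS4A14, a member about whose role in myeloid cells little can be said here, had the lowest level of the 5 in every library and the same order of groups as MS4A7. It had 4.94 and 3.08 TPM in control libraries, 9.78 and 7.30 TPM under TCP, 12.9 and 12.3 TPM under palbociclib, and 24.1 and 22.3 TPM under the combination. These groups did not overlap. It rose by 1.47 with palbociclib (limma adjusted p = 0.0015) and by 2.30 with both molecules (limma adjusted p = 0.000165), on the log2 scale. TCP differences of 0.94 without palbociclib and 0.83 with it were not called (limma adjusted p = 0.1605 and 0.0805).

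MS4A6A, a monocyte and macrophage gene, was the highest of the 5 genes in control, TCP and combination libraries. It had 53.5 and 79.6 TPM in control libraries, 64.2 and 108 TPM under TCP, 243 and 252 TPM under palbociclib, and 282 and 319 TPM under the combination. Control and TCP libraries overlapped, and replicate 2 was the higher in both groups. Palbociclib changed it by 1.90 and the combination by 2.18 on the log2 scale (standard error 0.26 each, limma adjusted p = 0.0015 and 0.000575). For TCP the difference was 0.35 without palbociclib (95% interval -0.27 to 0.96) and 0.28 with it (95% interval -0.34 to 0.90).

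**Figure D3:**
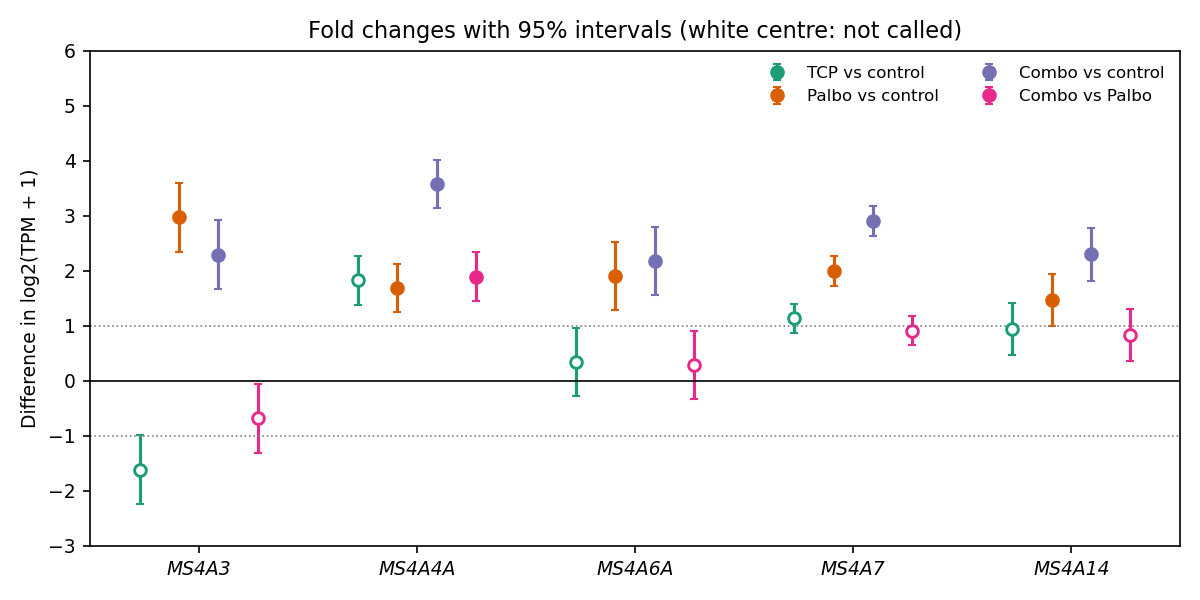
Differences in log2(TPM + 1) for the 5 genes in 4 comparisons, with 95% intervals from limma, filled points for called differences and a white centre for those not called. All differences of palbociclib and of the combination from control are called and above 1, while the TCP differences of MS4A3 are the only ones below 0.

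Counted over the 5 genes, palbociclib raised 5 of 5, where 4.54% of all genes tested were called higher and 9.10% in either direction, and the combination raised 5 of 5, where 5.87% were called higher and 13.7% in either direction. Higher calls made up 643 of 1288 for palbociclib and 830 of 1937 for the combination, or 838 of 1233 and 1127 of 1789 with the libraries scaled by median ratios, which called all 5 members as well. The members' median log2 changes were 1.90 and 2.30, beside -0.16 and -0.22 over all genes. All 5 were above the control range in both comparisons, as were 26.5% and 26.0% of all genes. Without palbociclib replicate 2, the library with the most stromal RNA, MS4A3, MS4A4A and MS4A7 were still called under palbociclib, at log2 changes of 2.94, 1.96 and 1.97. MS4A6A and MS4A14 then had 1.88 and 1.501 with limma adjusted p = 0.014 and 0.0128. Both also missed the call without palbociclib replicate 1 (0.0104 and 0.0118), and MS4A6A without control replicate 1 (0.0102). Against TCP alone the combination raised 5 of 5, by between 1.35 for MS4A14 and 3.91 for MS4A3, where 5.46% of genes were called higher and 12.2% in either direction (772 of 1720 calls, or 987 of 1589 with median-ratio scaling), and all 5 lay above the TCP range, as 25.9% of genes did. That comparison called 3 of 5 without combination replicate 2, MS4A6A and MS4A14 being lost with limma adjusted p = 0.0137 and 0.0124, and 4 of 5 without combination replicate 1, where MS4A14 had 0.0149.

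TCP alone called 0 of 5 with limma, where 0.0565% of all genes were called, and 4 of the 5 had an unadjusted p below 0.05, all but MS4A6A, against 1241 of 14151 genes. Without overlap, 3 members lay above the control range, as did 12.4% of all genes, and MS4A3 below it, as did 22.3%. Added to palbociclib, TCP called 1 of 5, MS4A4A, where 0.502% of genes were called and 0.459% called higher. The combination libraries lay above those of palbociclib for 4 members and for 16.6% of genes, and below them for MS4A3 and for 37.2% of genes. The comparison of TCP with control and that of the combination with palbociclib share no library. In both of them MS4A3 was below 0 and the other 4 genes above 0, in each replicate number. The interaction called 0 of 5 and 0 of all 14151 genes, and 1 member, MS4A3, had an unadjusted p below 0.05, as did 904 genes in all.

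**Figure D4:**
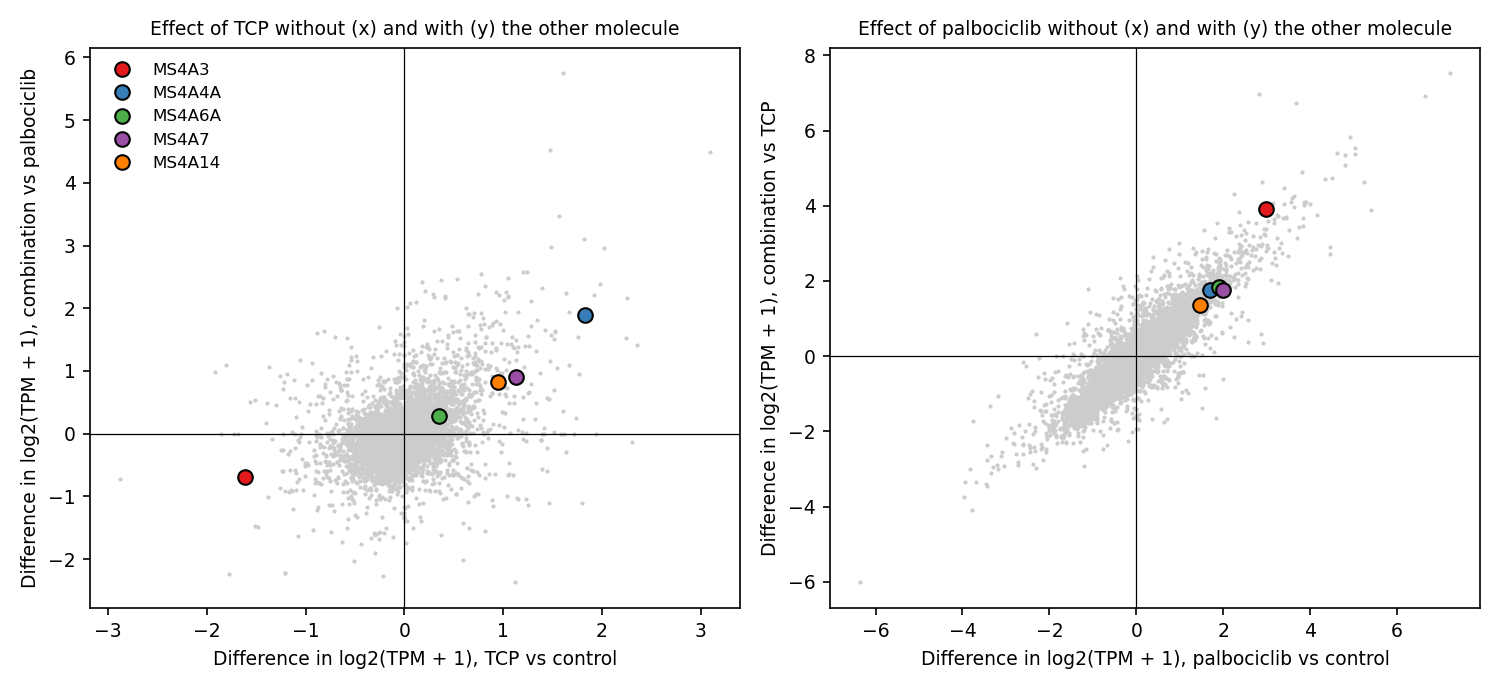
Each point is a gene, grey for the 14151 tested and colored for the members, with the difference in log2(TPM + 1) made by TCP (left) or palbociclib (right) in the absence of the other molecule on the x axis and in its presence on the y axis. The 2 axes of a panel share no library. MS4A3 lies in the lower left for TCP, the other 4 genes in the upper right, and all 5 in the upper right for palbociclib.

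The ratio of 2 genes within a library does not depend on how the libraries were scaled. MS4A3 stood at 5.50 and 11.7 times MS4A4A in the control libraries and at 0.527 and 0.787 times under TCP. The ratio was 14.6 and 22.6 under palbociclib and 2.78 and 3.14 under the combination. Against MS4A7 the ratio was 1.91 and 4.04 in control libraries, 0.310 and 0.482 under TCP, 5.31 and 5.41 under palbociclib, and 1.75 and 1.77 under the combination. MS4A3 was thus lower relative to both genes with TCP, in cells with and without palbociclib, with no overlap of the libraries. An exact two-sided permutation test of 2 libraries against 2 gave p = 0.333 for each of these differences, the smallest that the design allows. Against MS4A6A, the member that differed least under TCP, the ratio went from 0.835 and 0.930 to 0.223 and 0.211 with TCP alone, and from 1.85 and 1.87 under palbociclib to 0.987 and 0.916 under the combination.

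**Figure D5:**
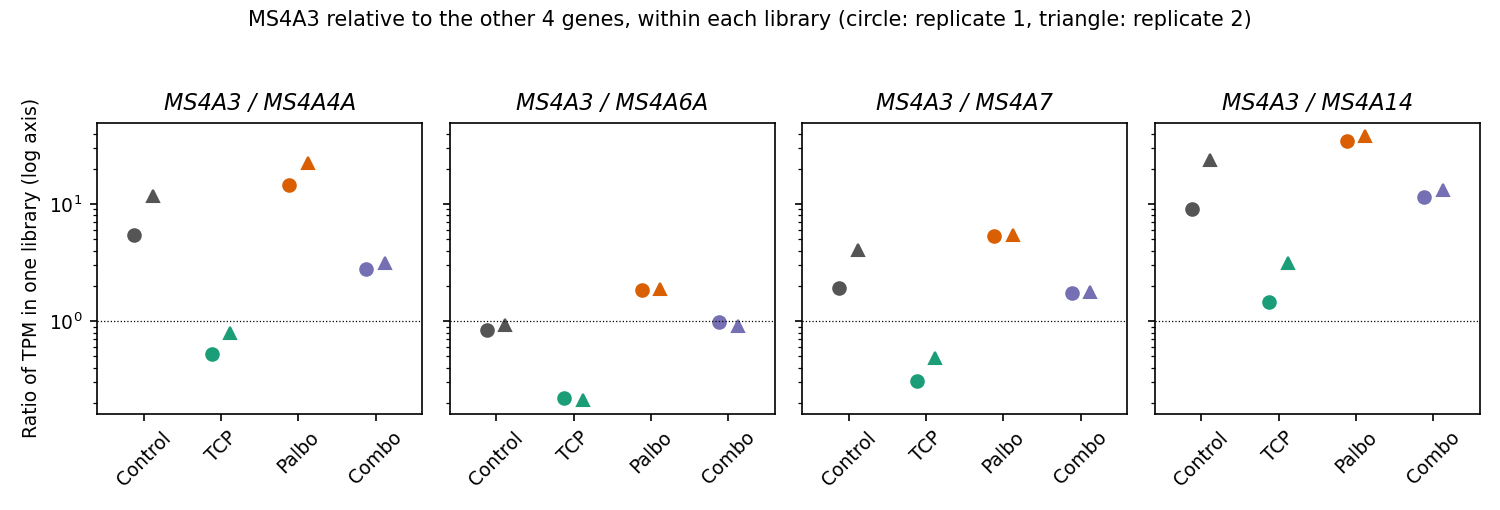
Ratio of MS4A3 TPM to the TPM of each of the other 4 genes in every library, on a log axis, with circles for replicate 1 and triangles for replicate 2. In all 4 panels the TCP libraries are lowest and the palbociclib libraries highest, and the combination libraries lie below those of palbociclib.

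The makeup of the family's RNA shifted with it. The 5 genes together had 135 and 182 TPM in control libraries, 162 and 214 TPM under TCP, 820 and 843 TPM under palbociclib, and 844 and 892 TPM under the combination, so that the summed level of the last 2 groups was close. MS4A3 made up 33.2% and 40.8% of this sum in control libraries, 8.85% and 10.6% under TCP, 54.7% and 55.9% under palbociclib, and 33.0% and 32.8% under the combination. MS4A4A made up 16.8% and 13.5% under TCP and 6.04% or less in control libraries. In level order, MS4A6A came first and MS4A3 second in control and combination libraries, MS4A3 first under palbociclib, and MS4A3 behind MS4A6A, MS4A7 and MS4A4A under TCP. In combination libraries MS4A6A and MS4A3 were close, with 301 ± 26.2 and 286 ± 9.72 TPM (SD, n = 2), and their ranges overlapped.

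Marker sums of myeloid stages are given beside the members. For 7 genes of progenitors and promyelocytes the summed level, most of it from the granule protein genes AZU1, PRTN3 and ELANE, lay between 2597 and 2980 TPM in control libraries, 1673 and 1756 TPM under TCP, 9433 and 9808 TPM under palbociclib, and 5530 and 6091 TPM under the combination. The sum had the order of groups of MS4A3, but not all of its genes did. Palbociclib raised ELANE, AZU1 and PRTN3 and lowered PRSS57, another protease gene of this list, and the combination raised AZU1 and PRTN3 and lowered CTSG and PRSS57. CTSG, a further granule protease gene, had 76.1 and 49.9 TPM in control libraries and was lowest under the combination, with 9.77 and 13.5 TPM. PRSS57 had its highest values in control libraries, 360 and 325 TPM, and its lowest under the combination, 113 and 74.0 TPM. Without palbociclib replicate 2 the calls of ELANE, AZU1 and PRTN3 held and that of PRSS57 was lost. Under TCP alone none of the 7 was called, with a median log2 difference of -0.74. The 8 monocyte markers, CD14, LYZ and S100A8 among them, summed to between 311 and 813 TPM in control libraries, 818 and 1841 TPM under TCP, 19277 and 21463 TPM under palbociclib, and 38988 and 39751 TPM under the combination. Control and TCP libraries nearly met in this sum, most of it LYZ. LYZ itself overlapped between them, with 770 TPM in control replicate 2 and 718 TPM in TCP replicate 1. The sum had the order of groups of MS4A7 and MS4A14. VCAN had another, with 0.784 and 1.16 TPM in control libraries, 2.86 and 2.79 TPM under palbociclib, 14.7 and 17.0 TPM under TCP, and 88.4 and 81.8 TPM under the combination. It was the 1 gene of that list called under TCP alone. Palbociclib raised 7 of the 8, or 6 without its replicate 2. Against palbociclib the combination had 6 of the 8 called higher, but without that library VCAN alone. Macrophage markers stayed lower than monocyte markers, with a sum of at most 110 TPM, but that sum rose as well. It lay between 5.39 and 10.4 TPM in control libraries and was at least 92.6 TPM under the combination. Most of it came from MARCO, SIGLEC1 and C1QA, while CD163, C1QB and C1QC stayed below 1 TPM in every library. Of the 4 macrophage markers that could be tested, the combination raised C1QA, VSIG4 and MARCO, and palbociclib raised C1QA and MARCO. SIGLEC1 was not called against control in any group. Without palbociclib replicate 2 the log2 changes of C1QA and MARCO under palbociclib were 3.353 and 3.478. TCP alone made no called difference to any of the 4. MRC1 was listed at 0 in every library. What part the makeup of the cultures had in the members' values was not tested.

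Among the 15 partners and relatives of MS4A proteins, 11 could be tested. They include TMEM176A and TMEM176B, 2 genes of chromosome 7 related to the family. Palbociclib raised 6 of them and lowered 2, with a median log2 change of 1.05, and the combination raised 7 and lowered 2, with a median of 1.595. Without palbociclib replicate 2 the 6 genes raised by palbociclib were still called, and of the 2 lowered CDKN3 was called and CDK2 was not (log2 difference -0.99). TMEM176B rose from 66.8 and 77.9 TPM in control libraries to 503 and 572 TPM under palbociclib and 565 and 610 TPM under the combination, and TMEM176A by log2 changes of 2.75 and 2.93 (limma adjusted p = 2.55e-05 and 1.27e-05). TCP made no called difference to either. FCER1G, the signaling gamma chain that Fc receptors use, rose from 43.6 and 28.0 TPM to 304 and 337 TPM under palbociclib and 669 and 772 TPM under the combination, and TYROBP, the adaptor of TREM2, rose in both as well, by 2.23 and 2.39 on the log2 scale.

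CLEC7A, which encodes dectin-1, was at or below 0.034 TPM in control libraries, at 1.06 and 0.939 TPM under palbociclib, and at 7.18 and 7.83 TPM under the combination. It was the 1 gene of this list that the combination raised above palbociclib, by 2.09 (limma adjusted p = 0.00313), as MS4A4A was among the members, and like MS4A4A it was not called without palbociclib replicate 2 (2.05 with limma adjusted p = 0.0313). CSF2RB, the common beta chain of the receptors of IL-3 and GM-CSF, a receptor subunit that MS4A3 associates with, rose under palbociclib and the combination by 1.38 and 1.27. CDKN3 and CDK2, the partners of MS4A3 in the cell cycle, fell under palbociclib by 1.37 and 1.06 and under the combination by 1.62 and 1.645 on the log2 scale. Under TCP alone CDKN3 differed by 0.15 and CDK2 by -0.31, and neither was called.

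The genes whose log2(TPM + 1) followed each member most closely over the 8 libraries were DUSP3, P2RY2 and IL6R for MS4A3 (Pearson's r from 0.992 to 0.997), and LYZ, SNN and CYBB for MS4A6A (0.995 to 0.996). They were TMSB4X, SCO2 and NDST1 for MS4A7 (0.992 to 0.995), NAAA, TMSB4X and NCF1C for MS4A14 (0.986 to 0.990) and PLD2, SH3BP5-AS1 and GABARAP for MS4A4A (0.977 to 0.978). The points are 4 groups of 2 libraries, so r mostly follows the group means, and 171 of the 4804 genes compared had r above 0.95 with MS4A3, 23 with MS4A4A and 287 with MS4A6A. DUSP3, a phosphatase gene, had 140 and 146 TPM in control libraries, 105 and 115 TPM under TCP, 215 and 216 TPM under palbociclib and 199 TPM in both combination libraries. NCF1C has near-identical copies, with which its reads may have been exchanged. Among the members themselves r was 0.986 between MS4A7 and MS4A14, which overlap in the genome, 0.938 between MS4A4A and MS4A7, and 0.397 between MS4A3 and MS4A4A.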

How the data were processed

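RNA was sequenced from 8 MV4-11 libraries of 4 groups (control, TCP, palbociclib and the combination, 2 each), assigned by the study's labels. The deposited values are TPM, made by the authors from gene counts (featureCounts 1.6.4) of reads that subread-align placed on hg19. Gene annotation, gene lengths and strand setting are not given in the sources used here, and TPM keeps no trace of depth, so no interval for counting error is given. Since TPM totals are equal, a rise of abundant genes lowers the rest. Each library had 13320 to 13640 genes at 1 TPM or more.

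The members and gene lists were chosen with earlier results of these data known. From the TPM, log2(TPM + 1) was computed for 14151 genes (1 TPM or more in 2 or more libraries). A limma 3.58.1 model (R 4.3.3) had a coefficient for each group, 4 residual degrees of freedom and a mean-variance trend. The authors' own test, DESeq2, needs read counts, which were not used here. Each treatment was compared with control and the combination with TCP and with palbociclib, and the interaction was tested. An exact permutation test of 2 libraries against 2 cannot give a two-sided p below 0.333.

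The groups share the replicate numbers 1 and 2. Across genes, libraries with the same number deviated together, with correlations of 0.169 to 0.491 in the 6 pairs of groups. The numbers were therefore taken to pair the libraries, on these values alone, and the main fit leaves the block out. Named genes were the 5 members, the other MS4A genes by count, the 3 genes with the highest Pearson's r to each member among those with a range of at least 1 (log2), and called genes of the partner list. Genes named outside this rule are examples of the marker lists. The alternatives tried were quantile normalization, a pseudocount of 0.1, all genes kept, genes averaging 5 TPM or more, median-ratio scaling, the replicate block, a fit of the compared groups alone, no variance trend, an adjusted p below 0.05 and each library left out. Counting the gene lists without palbociclib replicate 2 was chosen after seeing the data. Coordinates are those of a GENCODE annotation of GRCh37, and promoter windows are from RefSeq.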

Additional observations from a re-analysis of the deposited data

How the results depend on the processing

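Over the alternatives, 475 of 505 log2 differences of single members kept their direction and their side of the call, 18 lost the call, 3 gained it and 9 changed sign, none of the last with a call. Under the combination against control all 5 members were called in every alternative. Under TCP the count of members called went from 0 to 1 with the replicate block and to 2 with an adjusted p below 0.05 (MS4A4A and MS4A7). The replicate block changed no other call. Between the combination and palbociclib the count of 1 (MS4A4A) became 0 without the filter on low values and 0 with only the groups compared, where limma adjusted p was 0.0165 and 0.0379, and it was 0 to 0 with each library left out. With 1 library left out, the count was 3 to 5 for palbociclib and 3 to 5 for the combination against TCP. The cause was not tested, beyond the fewer libraries or the larger number of genes. Where a group kept 1 library, that library was assumed to vary like the other groups. Over all genes, calls under TCP went from 8 to 20 with the block, 36 at an adjusted p below 0.05, 3 with quantile normalization, 2 with median-ratio scaling, 0 with only the groups compared and 0 to 1 with 1 library left out. Calls between the combination and palbociclib went from 71 to 114, 183, 88, 86, 10 and 1 to 50 in the same order, and to 42 with a pseudocount of 0.1 and 38 without the filter. Palbociclib calls fell from 1288 to 783 without palbociclib replicate 2. Sign changes concerned values near 0. With 1 library left out, the TCP difference of MS4A6A ranged from -0.02301 to 0.72, and the interaction ranged from -0.21 to 0.34 for MS4A4A, from -0.44 to 0.30 for MS4A6A and from -0.38 to 0.16 for MS4A14. With a pseudocount of 0.1 the interaction of MS4A4A was -0.02266. Median-ratio scaling, which brought the median gene to 0 under the combination, gave MS4A3 a difference of -1.57 under TCP and a change of 2.53 under the combination. With 2 libraries a group and depth unknown, intervals are wide, most of all for MS4A3 and MS4A6A.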

Other observations

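2 MS4A genes outside the comparisons had values above 0. They were too low for the test and were singled out after their values were seen. MS4A2, which encodes the beta chain of the IgE receptor and lies next to MS4A3, had 0 and 0.0525 TPM in control libraries, 0 and 0.0214 TPM under TCP, 0.282 and 0.391 TPM under palbociclib, and 0.0596 and 0.0584 TPM under the combination. The palbociclib values of MS4A2 were numerically the highest, at a level too low to be read as a difference. FCER1A, the IgE-binding chain of the same receptor, was listed at 0 in 7 of the 8 libraries. MS4A6E, which shares 35 annotated exon bases with MS4A14, had 0.824 and 0.323 TPM under the combination and at most 0.463 TPM in the other libraries. At such levels no difference can be read from the values.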
